A study of Mus musculus with 16 samples.

Results

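The clustered protocadherins are cell surface adhesion proteins whose genes stand in 3 tandem arrays, alpha, beta and gamma, on mouse chromosome 18. Members were taken by name and chromosome alone, as genes of the Pcdha, Pcdhac, Pcdhb, Pcdhga, Pcdhgb and Pcdhgc series, with no measured value used. There were 58 members among the 55471 genes listed for CpG methylation around the transcription start site (TSS), 14 in alpha, 22 in beta and 22 in gamma. The histone mark values listed 24 members among 43984 genes. These were all 22 beta genes, 1 alpha entry named Pcdha10 and 1 gamma entry named Pcdhga3.

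Each alpha and gamma gene has its own promoter and its own first exon, which is spliced to exons shared by the whole array, whereas beta genes are mostly single exons. In neurons a small set of promoters is chosen in each cell, and this choice is tied to promoter CpG methylation and to binding of CTCF and cohesin. The C-type genes at the ends of the alpha and gamma arrays (Pcdhac1, Pcdhac2, Pcdhgc3, Pcdhgc4 and Pcdhgc5) are known to be expressed under other rules than the stochastically chosen members. H3K4me3 marks active or poised promoters, H3K36me3 marks transcribed gene bodies, and H3K27me3 marks genes held silent by Polycomb.

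Kidney proximal tubule cells (lines PTC11 and PTC12) and tail tip fibroblasts (lines TTF1 and TTF4) of the mouse had been turned into induced pluripotent stem cells (iPSCs), to ask whether the cell of origin leaves a mark after reprogramming. The donors were young adult littermates carrying SLC34a1-GCE and tdTomato together with rtTAROSA (neo-in) and OKMS-250, heterozygous for each, in which doxycycline (DOX) switches on Oct4, Klf4, c-Myc and Sox2. Cre was driven by the Slc34a1 promoter after tamoxifen feeding for the PTC lines and came from an electroporated episomal plasmid for the TTF lines, so that origin and the source of Cre cannot be told apart. Each line was a DOX-independent clone at early passage that had been kept on feeder fibroblasts, with 1 library each for CpG methylation, H3K4me3 and H3K36me3, hence n = 2 lines for each origin. For H3K27me3, TTF1 and TTF4 had 1 library each, while both PTC libraries carry the name PTC11.

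No reads or coverage accompany the values, so the depth behind a single gene is unknown. TTF4 stood apart in CpG methylation over the whole genome. Its mean methylated fraction over all genes with 4 values was 0.645, against 0.367 in PTC11, 0.477 in PTC12 and 0.374 in TTF1, so values are given below both as deposited and relative to all genes of the same line. As a check of the cell type, H3K4me3 had a value at 7 to 8 of the 9 pluripotency genes looked for in every line, with Esrrb at none and Zfp42 missing in TTF4. Of 7 proximal tubule markers, 1 to 2 had H3K4me3 in a line, and Slc34a1 had none. Of 8 fibroblast and feeder markers, 2 had the mark in PTC11 and 5 to 6 in the other lines, with summed levels of 5.88 RPKM in PTC11 and 17.3 to 23.5 RPKM elsewhere. Of 5 neural markers, 2 had it in PTC11 (summed 5.63 RPKM) and 3 to 5 elsewhere (8.58 to 16.8 RPKM). Their part in the protocadherin values was not tested.

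The members lay on the plus strand between positions 36930184 and 37841873 of chromosome 18 (mm10), over 911.69 kb. Their start sites were at least 3779 bp apart, so no member shared its window of 1 kb on each side of the TSS with another member, although all members of a line share 1 library. Alpha and gamma genes had up to 4 to 6 exons in the annotation and beta genes 1 or 2. The CpG number in the window differed between arrays, with a median of 54.5 CpGs in alpha, 28.5 in beta and 53.5 in gamma, beside 27 over all genes. Pcdhgb8 is annotated as a polymorphic pseudogene and every other member as protein coding. The name Pcdha11 was given to 2 genes, ENSMUSG00000007440 starting at 37005203 and ENSMUSG00000102206 starting at 37010712.

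CpG methylation of the clustered protocadherins was low to intermediate in 3 lines and high in TTF4. In the alpha array the mean fraction over 14 genes was 0.257 (PTC11), 0.301 (PTC12), 0.221 (TTF1) and 0.729 (TTF4). In the beta array the mean over 22 genes was 0.311, 0.448, 0.335 and 0.709 in the same order of lines. The gamma array had means of 0.216, 0.297, 0.233 and 0.774. Thus TTF4 held the highest mean in every array, and TTF1, the other fibroblast line, lay below PTC12 in every array. The SD over the genes of an array within a line lay between 0.100 and 0.222, and no test was made of TTF4, a single line, against the others.

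**Figure D1:**
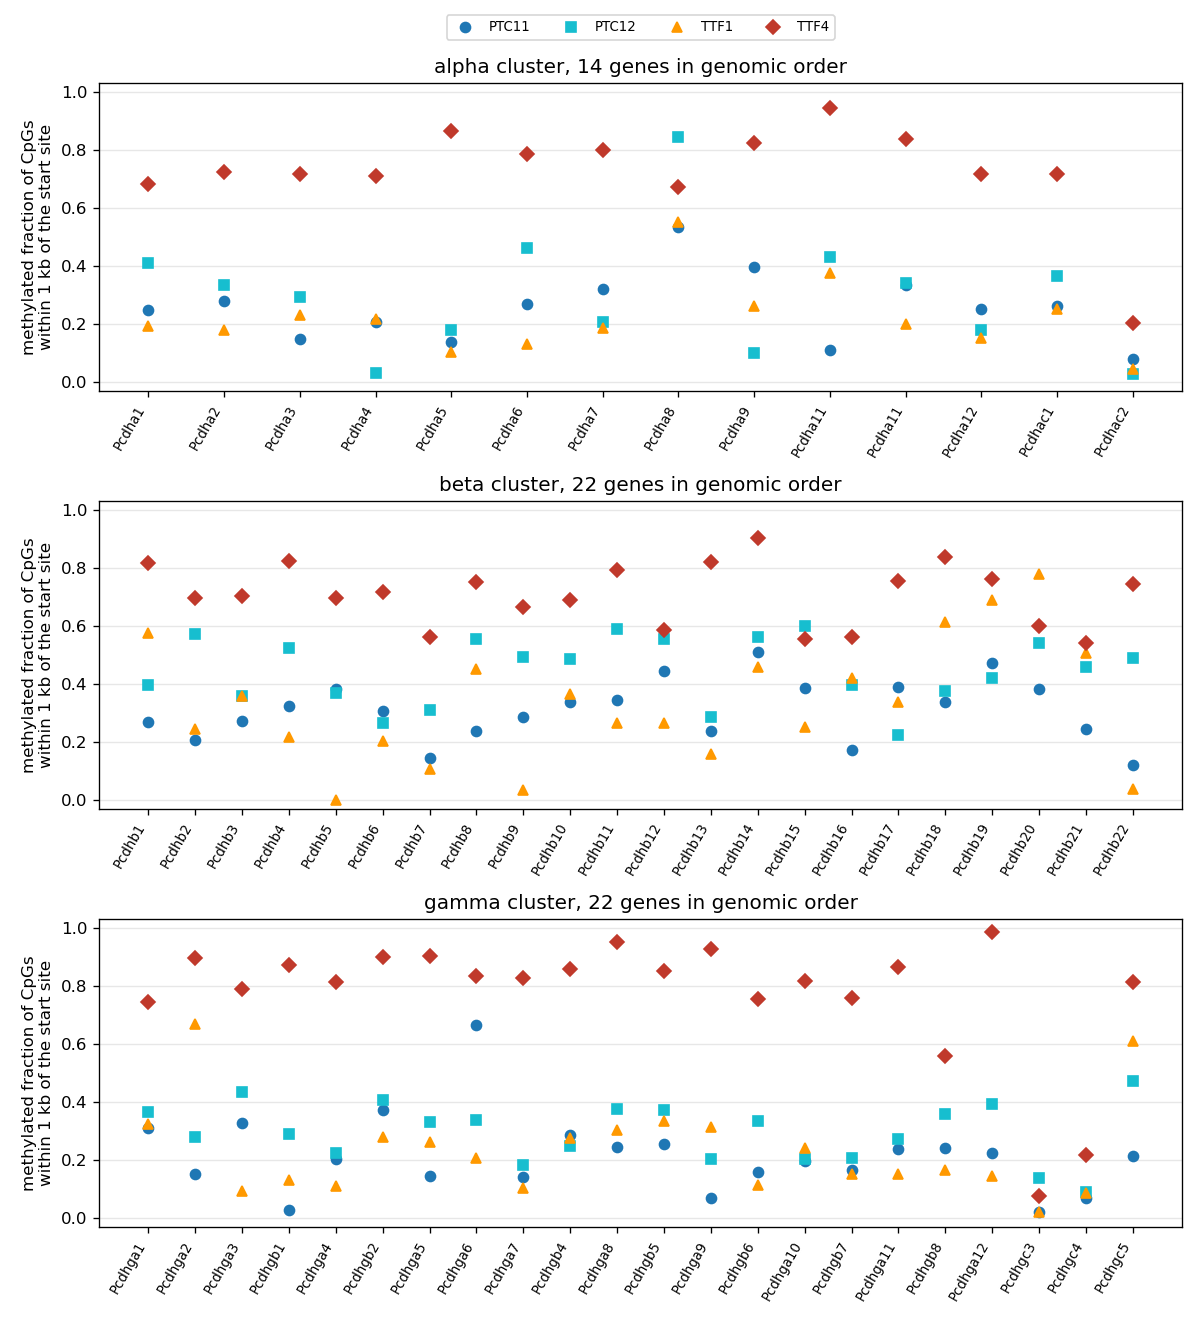
Methylated fraction of CpGs within 1 kb of the start site (vertical axis) for each alpha, beta and gamma gene in genomic order, with 1 point for each iPSC line and Pcdha11 shown for both of its identifiers. TTF4 (red diamonds) lies above the other 3 lines in 54 of 58 genes, and Pcdhac2, Pcdhgc3 and Pcdhgc4 are low in every line.

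TTF4 was the highest of the 4 lines at 54 of 58 members, against 75.4% of all 50657 genes with 4 values. The exceptions were Pcdha8, Pcdhb15 and Pcdhgc3, highest in PTC12, and Pcdhb20, highest in TTF1. TTF1 was the lowest line at 30 members, against 41.4% of all genes. Over the members, the median of TTF4 minus the mean of the other 3 lines was 0.459, beside 0.231 over all genes and 0.229 over 1330 other chromosome 18 genes. That median was 0.510 in alpha, 0.383 in beta and 0.569 in gamma, and as deposited it was positive at all 58 members (lowest 0.0179, at Pcdhgc3). With each line centred on its mean the median was 0.22 over the members, 0.27 in alpha, 0.14 in beta and 0.33 in gamma, and the difference was positive at 48 members. After quantile normalization the median was 0.13 over the members and 0.07 in beta, and 47 members were positive. Both scalings of this difference were chosen after seeing the data.

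Ranking each gene among all genes of its own line left the beta median level across lines but not the gamma median. The median percentile of the beta members was 42.7 (PTC11), 43.8 (PTC12), 42.9 (TTF1) and 42.4 (TTF4). Gene by gene, the median of TTF4 minus the mean of the other lines was 5.70 percentiles in beta and 28.8 in gamma. Over all genes that median was -1.04, and this measure was chosen after seeing the data. For the gamma members the median percentile was 32.4, 32.5, 31.2 and 61.5. That array thus lay below the median of the genome in 3 lines and above it in TTF4. Alpha members had median percentiles of 36.9, 32.9, 32.3 and 43.4. Over protein-coding genes with 4 values, the median percentile among all genes of a line lay between 25.6 (TTF4) and 28.1 (TTF1). The median of each array thus lay above that of protein-coding genes in every line. Within gamma, the 12 Pcdhga genes and the 7 Pcdhgb genes were alike, with median percentiles in TTF4 of 66.1 and 66.3 and of 29.1 to 35.3 in the other lines. These positions are descriptions of 4 libraries, since TTF4 is a single line.

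**Figure D2:**
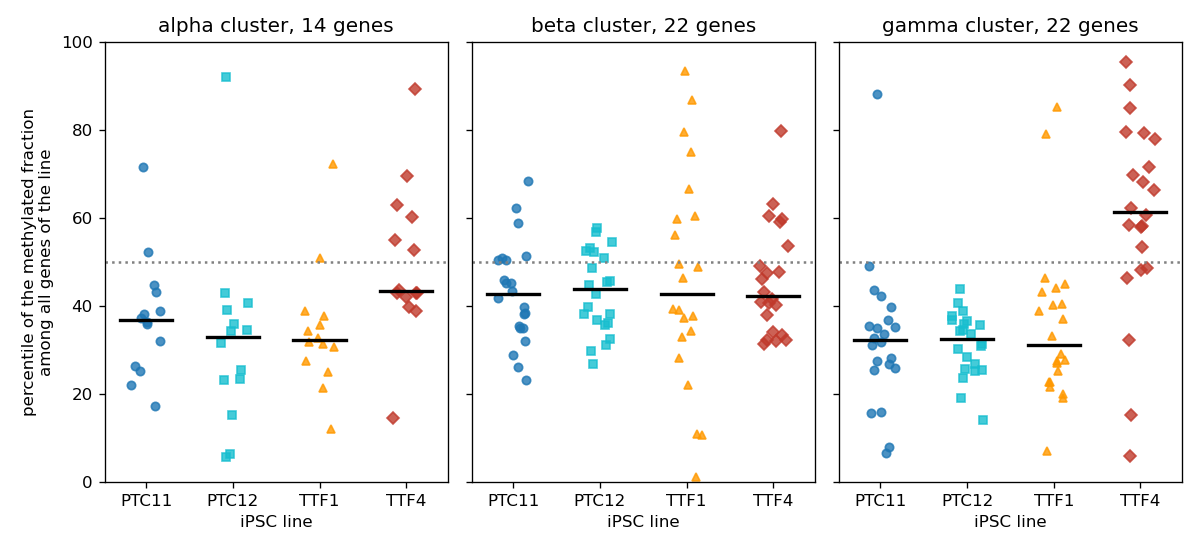
Percentile of each member's methylated fraction among all genes of the same line (vertical axis), by iPSC line and array, with a black bar at the median of the members and a dotted line at the genome median. The bar is level across lines in beta (42.4 to 43.8) and stands at 61.5 for TTF4 in gamma, against 31.2 to 32.5 in the other lines.

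The C-type genes fell into 2 kinds. Pcdhac2 (37143503), the last gene of the alpha array, had fractions of 0.0798 (PTC11), 0.0286 (PTC12), 0.0449 (TTF1) and 0.206 (TTF4). Pcdhgc3 (37806364), the first C-type gene of the gamma array, had 0.0237, 0.138, 0.0207 and 0.0787 in the same order, and Pcdhgc4 (37815079) had 0.0705, 0.0907, 0.0875 and 0.218. These 3 genes were the least methylated of all members in TTF4. Their windows held 102, 115 and 70 CpGs, and windows with 71 to 79 CpGs at Pcdhac1, Pcdhga10 and Pcdhga11 had fractions of 0.718 to 0.866 in TTF4.

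Pcdhac1 (37090013) and Pcdhgc5 (37819513) were instead highly methylated in TTF4, like the variable members. Pcdhac1 had fractions of 0.262, 0.365, 0.252 and 0.718 in PTC11, PTC12, TTF1 and TTF4, near the alpha means. Pcdhgc5, with 33 CpGs the most CpG-poor window of the gamma array, had 0.215, 0.473, 0.611 and 0.815 and the highest mean of that array. Its fraction in TTF1 stood above the means of the Pcdhga and Pcdhgb genes in that line, 0.246 and 0.209. Apart from Pcdhgc3, Pcdhgc4 and Pcdhgb8, which had 0.559, every gamma gene had at least 0.746 in TTF4.

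Among variable members a few genes stood out in 1 or more lines other than TTF4. Pcdha8 (36992371) had the highest mean fraction of the alpha array, at 0.533 (PTC11), 0.843 (PTC12), 0.552 (TTF1) and 0.672 (TTF4). It was the highest of the array in PTC11, PTC12 and TTF1. In TTF4 it was the lowest of the 12 variable alpha genes, which reached 0.945. Pcdhga6 reached 0.667 in PTC11 against 0.340 in PTC12 and 0.208 in TTF1. Pcdhga2 reached 0.669 in TTF1 against 0.154 in PTC11 and 0.282 in PTC12. Pcdhga6 was named after its values were seen.

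In the beta array, TTF1 was the line with the widest spread over genes (SD 0.213, against 0.103 to 0.113 in the other lines). A run of 4 neighbours at the 3' end of the array was methylated in TTF1, with fractions of 0.613 at Pcdhb18, 0.688 at Pcdhb19, 0.780 at Pcdhb20 and 0.508 at Pcdhb21. The next gene, Pcdhb22, had 0.0391 in TTF1, beside 0.123 in PTC11, 0.492 in PTC12 and 0.744 in TTF4. Pcdhb5 was listed at 0 in TTF1, with 0.384, 0.369 and 0.698 in PTC11, PTC12 and TTF4. Of these genes, Pcdhb5, Pcdhb20 and Pcdhb21 were chosen after their values were seen. Pcdhb14 had the highest mean of the array, at 0.512 (PTC11), 0.562 (PTC12), 0.459 (TTF1) and 0.904 (TTF4), and Pcdhb7 the lowest, at 0.147, 0.311, 0.109 and 0.563.

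Neighbouring promoters resembled each other only weakly. Across 55 pairs of adjacent genes of the same array, the Spearman correlation of their fractions was 0.13 (PTC11), 0.15 (PTC12), 0.18 (TTF1) and 0.19 (TTF4), as a description across genes that share a library. The order of members was partly shared among PTC11, PTC12 and TTF1, with Spearman correlations of 0.38 to 0.46 across the 58 members. Across all genes these correlations were higher too, at 0.69 to 0.74. TTF4 had correlations of -0.03, -0.11 and 0.18 with these lines, whereas across all genes it had 0.62 to 0.66.

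The number of CpGs in the window bore on methylation differently in TTF4. Across the 58 members, the Spearman correlation of CpG number with the fraction was -0.34 (PTC11), -0.56 (PTC12), -0.24 (TTF1) and 0.21 (TTF4), while over all genes it was negative in every line (-0.62, -0.63, -0.57 and -0.56). Without the 5 C-type genes the values for the members were -0.25, -0.49, -0.13 and 0.45. CpG number and array were confounded, because beta windows were the CpG-poor ones, and the points of a line share a library.

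**Figure D3:**
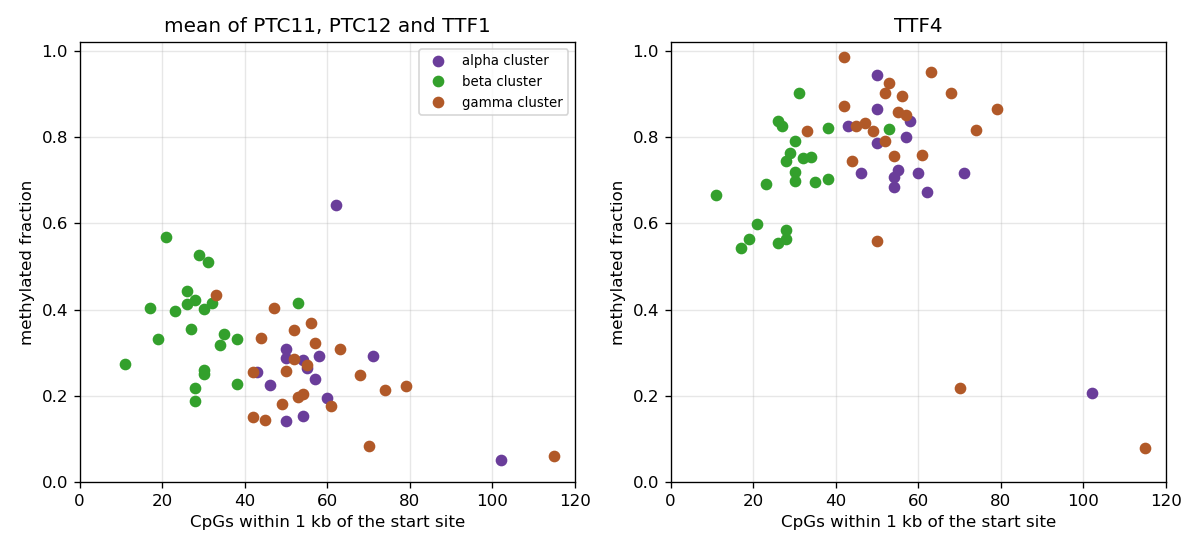
Number of CpGs within 1 kb of the start site (horizontal axis) against the methylated fraction of each member (vertical axis), as the mean of PTC11, PTC12 and TTF1 (left) and in TTF4 (right), coloured by array. CpG-poor beta genes tend to lie above alpha and gamma on the left and below them on the right, and the 3 points under 0.3 in TTF4 are Pcdhac2, Pcdhgc3 and Pcdhgc4.

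Origins were compared on fractions centred on the mean of each line. Centring takes out the difference in line means only, and low fractions of TTF4 then fall far below 0. Pcdhgc3, at 0.0787 in TTF4, became -0.570, against -0.358 to -0.344 in the other lines. No member passed the test between TTF and PTC lines (limma with Benjamini-Hochberg adjustment, adjusted p under 0.05), as against 2 of 50657 genes, or 0.00395%. The smallest adjusted p among members by limma was 0.602. At an unadjusted limma p under 0.05 there were 2 members, Pcdhga2 and Pcdhga9, beside 2392 genes (4.72%). The median centred difference, TTF minus PTC, was 0.12 over the members, 0.11 in alpha, 0.07 in beta and 0.18 in gamma, beside -0.01 over all genes, and it was above 0 at 44 members. The median standard error of a member was 0.15.

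On the centred scale, TTF1 and TTF4 both exceeded PTC11 and PTC12 at 16 members, against 15.0% of all genes, and both lay below at 3 members, against 12.8%. As deposited, Pcdhga2 had fractions of 0.154 and 0.282 in the PTC lines and 0.669 and 0.897 in the TTF lines, with a centred difference of 0.48 ± 0.15 (SE). Pcdhga9 had 0.0696 and 0.205 against 0.317 and 0.927, and a difference of 0.40 ± 0.15. The Pcdha11 gene that starts at 37005203 had 0.113 and 0.433 against 0.378 and 0.945, and 0.30 ± 0.16. The difference of Pcdhga9 was 0.227 without TTF4 and 0.567 without TTF1. For Pcdha11 it was 0.153 without TTF4 and 0.196 without PTC11, and 0.450 without TTF1. That of Pcdhga2 lay between 0.456 and 0.499 with any 1 line left out. As deposited, TTF4 was the highest line in all 3 genes. It exceeded TTF1 by 0.228 at Pcdhga2, by 0.610 at Pcdhga9 and by 0.567 at Pcdha11. After centring, TTF1 lay above TTF4 at Pcdhga2 (0.290 against 0.247).

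The 3 members with both TTF lines below both PTC lines after centring were Pcdhb15, Pcdhb12 and Pcdhgc3. Pcdhb15 had fractions of 0.388 and 0.599 in PTC11 and PTC12 and of 0.251 and 0.555 in TTF1 and TTF4 (centred difference -0.18 ± 0.15, SE). Pcdhb12 had 0.447 and 0.555 against 0.267 and 0.585 (-0.16 ± 0.15), and Pcdhgc3 differed by -0.12 ± 0.13. Without centring the differences were -0.0911, -0.0744 and -0.0311 for the 3 genes. For Pcdhgc3 the difference was -0.0119 without TTF4, -0.224 without TTF1 and -0.0544 after quantile normalization. On the fractions as deposited the origins of all 3 overlapped and no member had both TTF lines below both PTC lines. With only 3 lines fewer values have to be in order. Members with TTF above then numbered 27 without PTC11, 21 without PTC12, 47 without TTF1 and 20 without TTF4. Those with TTF below numbered 5, 5, 6 and 23 in the same order. These counts have no share over all genes beside them.

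The difference between origins over the members rested on TTF4. Centred against the mean of the PTC lines, TTF4 was higher at 50 of 58 members with a median of 0.21. TTF1 was higher at 27 members with a median of -0.01. Over all genes TTF4 was higher at 47.9% with a median of -0.01, and TTF1 at 54.9% with a median of 0.02. By array the medians for TTF4 were 0.28 in alpha, 0.11 in beta and 0.36 in gamma, and for TTF1 they were -0.02, -0.03 and 0.02. Both lines were above the PTC mean at 23 members and on opposite sides of it at 31, which were 27 with TTF4 alone above and 4 with TTF1 alone above. Without TTF4 the median member difference was -0.01. Without TTF1 it was 0.21, and the differences at Pcdha5, Pcdhga2, Pcdhgb1, Pcdhga7 and Pcdhga9 were 0.44 to 0.57. A lone TTF line is assumed to vary like the PTC lines in these fits, so their calls are not read.

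**Figure D4:**
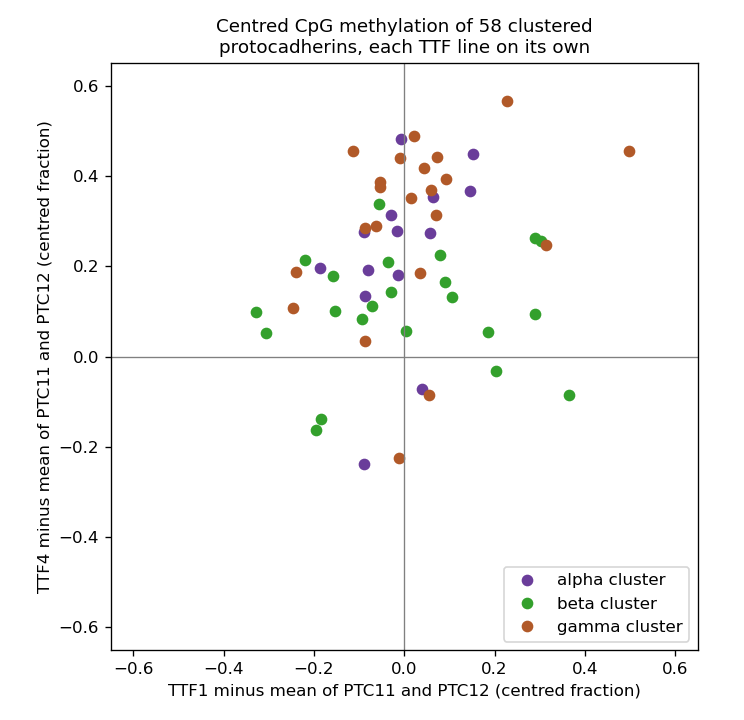
Centred CpG methylation of each member in TTF1 (horizontal axis) and TTF4 (vertical axis), each minus the mean of PTC11 and PTC12, coloured by array. Points spread on both sides of 0 for TTF1 (27 of 58 above) and lie mostly above 0 for TTF4 (50 of 58 above). Over all genes the shares above 0 were 54.9% for TTF1 and 47.9% for TTF4.

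Genes around and related to the arrays were looked at in the same way. Of 28 genes of other names between the first and the last member, mostly antisense transcripts and pseudogenes, 26 were highest in TTF4, with a median of TTF4 minus the other lines of 0.392. Of these, 11 start within 2 kb of a member's start and so share part of its window. Taf7, a subunit of the general transcription factor TFIID that lies between beta and gamma, had fractions of 0.0331 (PTC11), 0.153 (PTC12), 0.0672 (TTF1) and 0.247 (TTF4). The 12 non-clustered protocadherins, whose genes lie outside the arrays, had median fractions of 0.055, 0.0655, 0.105 and 0.151 in the same order. Of these 12 genes, 7 were highest in TTF4. The 18 genes for CTCF, cohesin, DNA methyltransferases and other regulators of these promoters had medians of 0.0479 to 0.198, and none of these 30 genes passed the limma test of origin.

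H3K4me3 was largely missing from the 24 members listed, of which 22 were beta genes. It had a value at 0 of 24 members in PTC11 (34.4% of all genes listed), 3 in PTC12 (45.4%), 4 in TTF1 (44.2%) and 1 in TTF4 (34.9%). No retained peak in any line was found at 20 of 24 members, against 50.5% of all genes and 29.9% of protein-coding genes. All 20 were beta genes, and the only alpha and gamma entries each had the mark in 2 lines. The values thus do not show whether the other alpha and gamma promoters lacked it. By contrast, 11 of 13 entries for the non-clustered protocadherins had the mark in at least 1 line. Of 10 entries of other names inside the locus, 2 had no peak in any line. Among them, Taf7 had 4.56, 4.97, 4.64 and 3.39 RPKM in the order PTC11, PTC12, TTF1, TTF4. An unnamed entry starting at 37668900, near the start of Pcdhga2 (37668953), had 4.15, 2.83 and 3.95 RPKM in PTC11, PTC12 and TTF1. No member had H3K4me3 in all 4 lines, so none entered the test of origin over 4 lines, in which limma called 66 of 13709 genes (0.481%).

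Pcdhb1, at the 5' end of the beta array, had H3K4me3 in the most lines, at 3.28 RPKM in PTC12, 2.42 in TTF1 and 2.54 in TTF4, with no peak in PTC11. In a fit in which 3 lines sufficed, the difference of Pcdhb1, TTF minus PTC, was -0.30 ± 0.32 (SE) on the log2(RPKM + 1) scale and did not pass (limma, adjusted p = 1). Its window holds 53 CpGs, the most of any beta gene. The Pcdhga3 entry had 4.00 RPKM in PTC12 and 3.54 in TTF1, and the Pcdha10 entry had 2.12 and 2.34 in those lines. That entry starts at 36930285, which is 101 bp from the start of Pcdha1 and 74.9 kb from the gene that carries its identifier in the methylation values, so its H3K4me3 was taken near the start of Pcdha1. Pcdhb22 had 3.08 RPKM in TTF1 alone, the line in which its methylated fraction was 0.0391. Pcdhb5, listed at 0 methylation in TTF1, had no H3K4me3 peak there, and Pcdhb1 had the mark in TTF1 beside a fraction of 0.577. PTC12 and TTF1 were also the lines with the most genes carrying H3K4me3 overall.

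**Figure D5:**
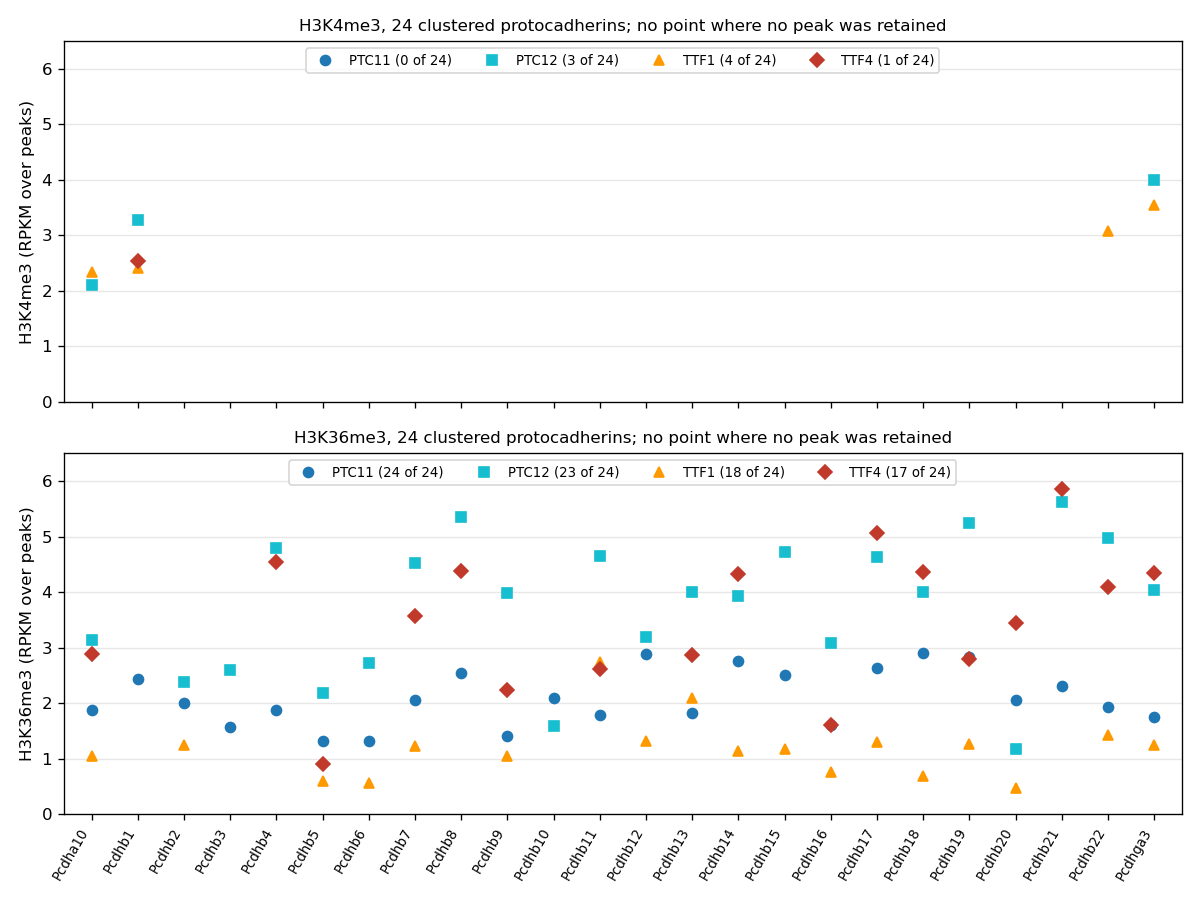
Input-subtracted RPKM of H3K4me3 (top) and H3K36me3 (bottom) for the 24 members with histone values, in genomic order, with 1 point for each iPSC line and no point where no peak was retained. H3K4me3 has 8 points in all, at 4 members, whereas H3K36me3 is found at 17 to 24 members of each line.

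H3K36me3 was found at more members than H3K4me3 in every line. It had a value at 24 of 24 members in PTC11 (68.0% of all genes listed), 23 in PTC12 (52.5%), 18 in TTF1 (53.4%) and 17 in TTF4 (46.3%). As shares these were 100%, 95.8%, 75% and 70.8% of the members, beside 87.0%, 78.2%, 76.1% and 70.7% of protein-coding genes, so that in the TTF lines the members were near the protein-coding share. All 4 lines had the mark at 14 members, or 58.3%, against 38.7% of all genes and 63.5% of protein-coding genes. Members with H3K36me3 and no H3K4me3 numbered 24 (PTC11), 21 (PTC12), 15 (TTF1) and 17 (TTF4), which was 62.5% to 100% of the members, against 15.1% to 34.7% of all genes. Pcdhb1 was the reverse, with H3K36me3 in PTC11 alone (2.44 RPKM), the line without H3K4me3. Peaks of the Pcdha10 and Pcdhga3 entries cover gene bodies that overlap the rest of their arrays, and thus stand for the array rather than for 1 gene.

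Levels of H3K36me3 over the members were highest in PTC12 and TTF4 and lowest in TTF1. Over the 14 members with 4 values the mean was 2.05 ± 0.523 RPKM (SD over members) (PTC11), 3.83 ± 1.11 (PTC12), 1.22 ± 0.596 (TTF1) and 3.22 ± 1.18 (TTF4). The mean over all genes with 4 values was 1.75, 4.52, 1.22 and 4.31 RPKM in that order. The members thus lay above the mean of all genes in PTC11, at it in TTF1, and below it in PTC12 and TTF4. Ranked within each library, their median percentile was 74.8 (PTC11), 48.9 (PTC12), 46.6 (TTF1) and 24.3 (TTF4).

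Among the 14 members with H3K36me3 in all 4 lines, the highest mean belonged to Pcdhb17, with 2.63 RPKM (PTC11), 4.63 (PTC12), 1.31 (TTF1) and 5.07 (TTF4). Next were Pcdhb22, Pcdhb14, Pcdhb19, Pcdhb18 and Pcdhb11, with means of 2.95 to 3.11 RPKM, then Pcdhb7, Pcdhga3, Pcdhb13 and Pcdha10, with 2.23 to 2.85. Means over 3 lines were higher at Pcdhb4 (3.74 RPKM), Pcdhb8 (4.10) and Pcdhb21 (5.63 RPKM in PTC12 and 5.86 in TTF4), which had no value in TTF1, the line with the lowest levels. Of the 10 entries with 4 values named first, 8 were beta genes, as were 12 of all 14 members with 4 values. TTF1 was the lowest line at all of these 10 but Pcdhb11 and Pcdhb13, where PTC11 was lowest.

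Between origins no member passed for H3K36me3 (limma with Benjamini-Hochberg adjustment), against 19 of 17039 genes, or 0.112%, and none had an unadjusted limma p under 0.05, beside 116 genes (0.681%). The median difference of the 14 members, TTF minus PTC, was -0.32 on the log2(RPKM + 1) scale, with single values of -0.74 to -0.01 and a median standard error of 1.05, beside -0.14 over all genes. It changed sign with the lines used, from -0.81 without TTF4 and -0.68 without PTC11 to 0.01 without PTC12 and 0.18 without TTF1. Both TTF lines lay below both PTC lines at 3 members (Pcdhb5, Pcdhb16 and Pcdhb19), against 3.05% of all genes, and none had both above, against 0.452%. With a line left out, 18 members had values without TTF4, 17 without TTF1 and 14 without PTC11 or PTC12. Members with TTF below numbered 9 of 14 without PTC11 and 16 of 18 without TTF4. Members with TTF above numbered 6 of 17 without TTF1 and 2 of 14 without PTC12. These counts have no share over all genes beside them. Pcdhb5 had 1.33 and 2.18 RPKM in the PTC lines and 0.599 and 0.897 in the TTF lines, a difference of -0.64 ± 0.50 (SE).

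Methylation at the start site and H3K36me3 over the gene could be set side by side for the beta genes, whose entries match in both measurements. Across those with H3K36me3, the Spearman correlation was 0.42 in PTC11 (22 genes), 0.12 in PTC12 (21), -0.14 in TTF1 (16) and 0.20 in TTF4 (15), given as descriptions within a library. In TTF1, the 6 beta genes without H3K36me3 had a median fraction of 0.410 and the 16 with it 0.259. In TTF4 the order was the other way, 0.696 for the 7 genes without the mark and 0.753 for the 15 with it. H3K27me3 was found at none of the 24 members in any of its 4 libraries, in which 11 to 144 of all genes had a value.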

How the data were processed

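The authors deposited CpG methylation as the fraction of methylated CpGs for each gene and line, from nanopore reads (minimap2 2.17-r941, mm10, Nanopolish calls) averaged in sliding windows within 1 kb of the TSS, without centring. They deposited histone marks as RPKM, from ChIP-seq peaks called against input in each library (Bowtie2 2.1.0, MACS2 2.0.10, bedtools 2.17.0, per the methods and the submitters' processing notes), with input RPKM subtracted and peaks averaged over the gene body for H3K36me3 and around the TSS for the other marks. A gene with no retained peak has no value, and presence therefore depends on peak calling. Coverage and reads were not given, so the only measure of precision is how far the 2 lines of an origin differ. The series describes duplicates from 2 separate mice without naming the mouse of each line, so p-values measure the spread between clonal lines. Over 4 lines an exact permutation test cannot give a two-sided p below 0.33, and none was used.

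Fractions were centred on the mean of each line over all genes with a value, and RPKM were taken as log2(RPKM + 1). Genes with values in all 4 lines were tested with limma (3.58.1 under R 4.3.3, using lmFit followed by eBayes with trend), adjusted over all genes; the code was tested on simulated data. CpGs were counted in the GRCm38.p6 genome, on which all 58 starts and ends match a GENCODE annotation. Entries were matched between the tables by name for beta genes only, since the identifier of Pcdha10 in the histone values is that of Pcdha11 for methylation, and that of Pcdhga3 is Pcdhgc4. Members and gene lists were chosen with earlier results of these data known. Genes were named by rule: the C-type genes, the highest and lowest mean methylation in each array, the 3 largest differences in each direction among members whose origins did not overlap, members passing a test, and, among members with a mark in the most lines, the 10 with the highest mean H3K36me3 and those with the highest H3K4me3; other names were chosen after their values were seen. H3K27me3 was counted and not tested.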

Additional observations from a re-analysis of the deposited data

How the results depend on the processing

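No paired analysis was possible because the mouse of each line was not named. For CpG methylation, genes called by limma numbered 2 in all, and 0 without centring, under quantile normalization, on percentiles and on log odds, 52 with median centring, 9 without chromosomes X and Y, 1 without the variance trend and 4 with partly missing genes. Leaving out 1 line gave 0 to 1003 genes (7 without PTC11, 0 without PTC12, 1003 without TTF1, 264 without TTF4), 0 to 5 members, 20 to 47 members with TTF above PTC, 5 to 23 with TTF below, and median member differences of -0.0111 to 0.212. Calls with a line left out are not read, since 1 origin then has a lone line. Members with TTF below PTC numbered 0 without centring and 5 on log odds. The median difference was 9.01 percentiles and 0.53 log odds. Directions turned for Pcdhac2 (0.0712 without centring, 0.0117 under quantile normalization, 1.70 percentiles, 0.324 log odds) and for Pcdhgc4 (0.0720, 0.0204, 2.20 and 0.104), and with a line left out for Pcdhac1 (-0.0136 to 0.182), Pcdhac2 (-0.0964 to 0.0647) and Pcdhgc4 (-0.0852 to 0.0550). The median of TTF4 minus the other lines over members was 0.22 after centring, 0.13 after quantile normalization and 11.7 percentiles, with 48, 47 and 45 of 58 members above 0, alternatives chosen after seeing the data. Genes called for H3K4me3 numbered 102 with a pseudocount of 0.1, 0 with a mean of at least 1 RPKM, 0 under quantile normalization, 0 without the trend, 183 with 3 lines sufficing and 78 to 138 with a line left out. For H3K36me3 these were 44, 0, 0, 0, 29 and 1 to 53 (35 without PTC11, 53 without TTF1, 1 without TTF4), and no member passed in any of them. With 3 lines sufficing, 1 of 21 members had TTF above PTC and 7 below for H3K36me3. With a line left out, 0 to 6 were above and 3 to 16 below, among 14 to 18 members. The causes were not tested, beyond the fewer lines or genes in some settings. Of the recomputed counts, medians and levels, 104 stayed within the spread between lines or within 1.5 times the reported count and 49 did not. Of the recomputed differences of single named genes, 105 kept direction and call and 13 turned direction. The other 2 were Pcdhga2 and Pcdhga9 without TTF1, with differences of 0.456 and 0.567, whose calls are not read. The unknown coverage and the 2 lines per origin limit all comparisons of single genes.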
